A study of Homo sapiens with 4 samples.

Results

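The myosin heavy and light chain genes were followed here in A549, a human lung adenocarcinoma cell line, with and without depletion of the splicing regulator RBM10, which binds RNA and acts on exon inclusion. The genes were chosen by name, as protein-coding genes whose symbol is MYH or MYL followed by digits, or MYO followed by digits and a letter. By this rule 34 of the 17041 genes of the expression table were myosins, namely 9 light chains, 3 non-muscle class II heavy chains, 4 muscle-type heavy chains and 18 unconventional myosins. GENCODE v29 holds 48 genes with such names, and those without a row are not analysed here. The splicing table held 9 events of 6 of these genes, among 3768 events of 2166 genes. MYLK and other genes that are not myosin chains fell outside the rule, as did MYO6, MYO10 and MYO19, whose symbols end in a digit.

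Myosins are the motor proteins that walk on or pull actin filaments. A myosin holds a heavy chain with the motor head, and light chains or calmodulin that bind its lever arm. Class II myosins assemble into bipolar filaments and contract actin, and the non-muscle members MYH9, MYH10 and MYH14 drive cell cortex tension, stress fibres and cytokinesis. The unconventional classes work as single motors or small assemblies at membranes, in vesicle transport and in actin protrusions.

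Polyadenylated RNA was read in 2 libraries of RBM10 wild-type cells and 2 of RBM10 knockdown cells. Knockdown cells carried a lentiviral shRNA against RBM10, with 1 shRNA sequence for both libraries, and were kept in puromycin for 10 to 14 days. A control vector or puromycin in the wild-type cells is neither stated nor denied in the labels, so the effects of RBM10 loss, of transduction and of selection cannot be told apart. All 4 libraries carry the same batch label. The labels do not tie the replicates to separate cultures, so p-values here speak of the spread among the 4 libraries, which may be technical. Levels are RPKM, which divides reads by gene length and by depth, a unit inferred from the form of the values. Differences are log2(RPKM + 1) of knockdown minus wild type, tested with limma over the 10182 genes that averaged 1 RPKM or more in either group. A gene is called higher or lower at a Benjamini-Hochberg adjusted p under 0.05 over all of them, and the log2 difference understates the change of genes near 1 RPKM.

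RBM10 stood at 35.5 and 40.8 RPKM in wild-type cells and 11.6 and 10.9 RPKM in knockdown cells, 29.5% of wild type (log2 difference -1.67 ± 0.11 SE, limma adjusted p = 1.01e-05). About 40000000 paired-end reads of 100 bp per library were sequenced, per the labels, and the relative depth read from the steps of low values ranged from 84.5% to 100% of the deepest library. The summed RPKM ranged from 285579 to 304918. The genes reaching 1 RPKM numbered 9629 and 9502 in wild type and 9967 and 10113 in knockdown. All 8 epithelial and A549 markers were at 1 RPKM or more in every library, and 6 of them were called higher and 1 lower in the knockdown, with a median log2 difference of 0.76. Of 10 skeletal muscle markers 3 had a row, namely DES, TNNI2 and RYR1, with a summed level of 0.632 to 0.640 RPKM in wild type and 1.40 to 1.47 RPKM in knockdown.

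The myosin RNA of A549 was concentrated in few genes. All 34 members together reached 869 and 905 RPKM in wild type and 997 and 1025 RPKM in knockdown, or 0.294% and 0.297% of a library's summed RPKM against 0.338% and 0.359%. Both knockdown libraries thus lay above both wild-type libraries. MYL6, the essential light chain of non-muscle and smooth muscle myosin II, alone gave 43.5% and 47.0% of that sum in wild type and 48.0% and 46.0% in knockdown. MYL6, the regulatory light chain MYL12B and the heavy chain MYH9 together gave 71.7% to 73.3% in the 4 libraries, with the groups overlapping. With 2 libraries a group, the exact permutation test of a single value cannot give a two-sided p under 0.333, so sums and shares are given without a test. In bulk RNA, fewer cells of a type and less RNA per cell cannot be told apart.

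**Figure D1:**
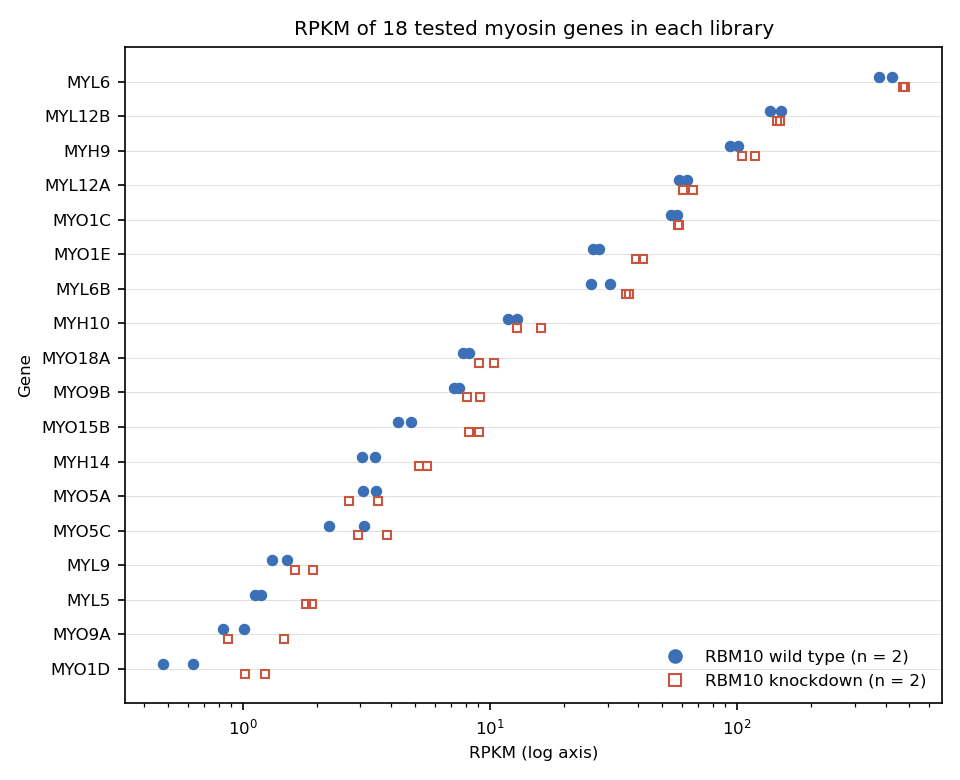
RPKM of 18 of the 19 myosin genes above the filter of 1 RPKM, on a log axis, with filled circles for the 2 wild-type libraries and open squares for the 2 knockdown libraries. MYL6 stands highest at 378 to 479 RPKM and MYO1D lowest from 0.475 RPKM.

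Of the 34 members 19 passed the filter and were tested. In the knockdown 6 were called higher (MYO15B, MYH14, MYO1E, MYO1D, MYL5 and MYL6B), 1 was called lower, and 12 passed in neither direction. Over all tested genes 15.3% were called higher and 7.03% lower, 22.3% in either direction. The tested members had a median log2 difference of 0.21, against 0.02 for all tested genes. MYO1D and MYO9A passed the filter only through the knockdown libraries, and for such a gene the filter itself favours a higher value there. The groups did not overlap, with knockdown higher, in 13 of the 19 and, with knockdown lower, in 1, beside 34.3% and 27.3% of all tested genes.

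**Figure D2:**
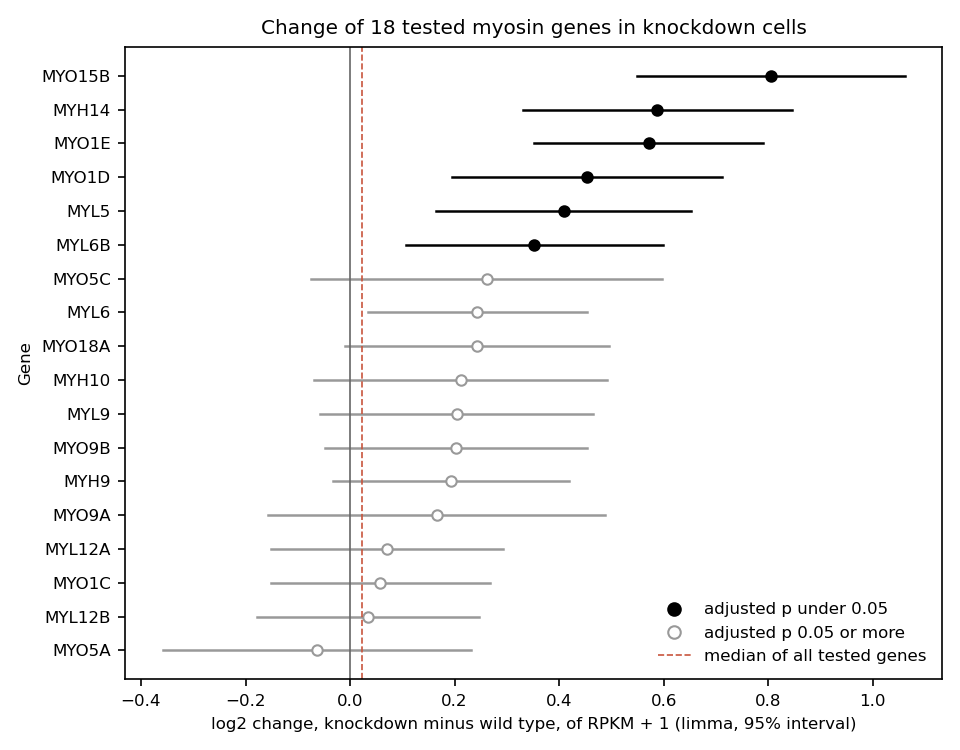
Difference in log2(RPKM + 1), knockdown minus wild type, of 18 of the 19 tested myosin genes with 95% confidence intervals from limma, with filled black points for adjusted p under 0.05, grey open points for the others and a dashed line at the median of all tested genes. MYO15B lies farthest to the right at 0.81 and MYO5A farthest to the left at -0.06, and the intervals of 11 of the 12 genes outside the calls cross 0.

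The non-muscle class II heavy chains are the motors of contractility in cells outside muscle. MYH9, the heavy chain of non-muscle myosin IIA, was at 93.5 and 101.6 RPKM in wild-type cells and 105.1 and 118.5 RPKM in knockdown cells. Its groups did not overlap, but the difference of 0.19 ± 0.10 SE (95% interval -0.03 to 0.42) did not pass the test (limma adjusted p = 0.203). MYH10, the heavy chain of myosin IIB, was at 12.9 and 11.8 RPKM in wild-type cells and 12.9 and 16.2 RPKM in knockdown cells. Knockdown replicate 2 was the highest library and the other 3 lay close together, and MYH10 passed in neither direction (log2 difference 0.21, interval -0.07 to 0.49, adjusted p = 0.258).

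MYH14, the heavy chain of myosin IIC, was the least abundant of these 3 heavy chains and the one called. It stood at 3.06 and 3.43 RPKM in wild-type cells and 5.16 and 5.58 RPKM in knockdown cells, so that both knockdown libraries lay above both wild-type libraries. The mean rose from 3.24 ± 0.262 to 5.37 ± 0.296 RPKM (SD, n = 2 libraries each), a log2 difference of 0.59 ± 0.11 SE (limma adjusted p = 0.00569). The sum of the 3 heavy chains was 109 and 117 RPKM in wild type and 123 and 140 RPKM in knockdown. Within it MYH14 held 2.79% and 2.93% in wild type and 4.19% and 3.98% in knockdown, while MYH9 held 84.5% to 87.0% in all 4 libraries.

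**Figure D3:**
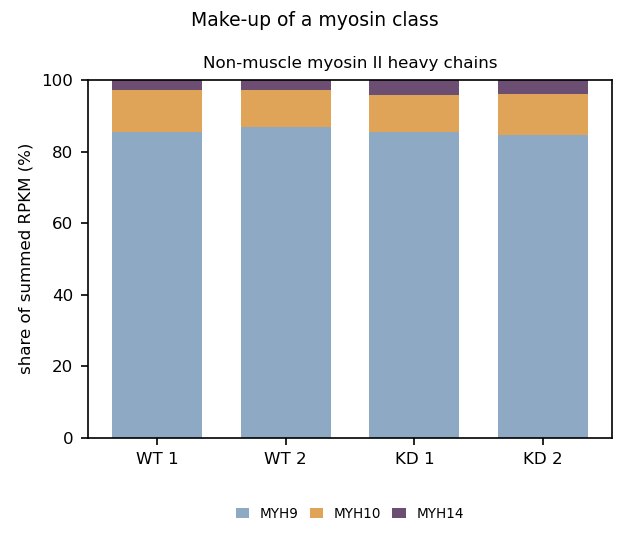
Stacked bars with the share of the summed RPKM in percent held by each of the 3 non-muscle class II heavy chains in each library (WT wild type, KD knockdown). MYH9 holds 84.5% to 87.0% in every library, and MYH14 2.79% and 2.93% in wild type and 4.19% and 3.98% in knockdown.

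Essential light chains stiffen the lever arm of a class II myosin. MYL6 was at 378 and 426 RPKM in wild-type cells and 479 and 471 RPKM in knockdown cells, the highest level of any member. Both knockdown libraries were above both wild-type libraries, and the log2 difference of 0.24 (interval 0.03 to 0.45) did not pass after adjustment (limma adjusted p = 0.0925). Its relative MYL6B was at 25.7 and 30.7 RPKM in wild-type cells and 36.6 and 35.7 RPKM in knockdown cells. MYL6B was called higher with an adjusted p close to the threshold (log2 difference 0.35 ± 0.11 SE, adjusted p = 0.046). MYL6 and MYL6B are neighbours whose annotations overlap on the same strand of chromosome 12, so reads in the shared stretch may be counted for either gene. The pair summed to 404 and 456 RPKM in wild type and 516 and 507 RPKM in knockdown.

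Regulatory light chains carry the phosphorylation site that switches non-muscle myosin II on. MYL12A was at 62.8 and 58.1 RPKM in wild-type cells and 60.5 and 66.6 RPKM in knockdown cells. MYL12B was at 151.7 and 136.5 RPKM in wild-type cells and 145.3 and 149.6 RPKM in knockdown cells. For both genes the groups overlapped, with log2 differences of 0.07 (interval -0.15 to 0.29) and 0.03 (interval -0.18 to 0.25), and neither passed the test (adjusted p = 0.65 and 0.827). The coding sequences of MYL12A and MYL12B are 92.5% identical (491 of 531 bases of MYL12A in GENCODE v29), so the split of reads between them may be uncertain, which was not tested. MYL9, the regulatory light chain best known from smooth muscle, was at 1.51 and 1.31 RPKM in wild-type cells and 1.92 and 1.64 RPKM in knockdown cells, without overlap and without passing (log2 difference 0.20, adjusted p = 0.242). The 3 regulatory chains summed to 216 and 196 RPKM in wild type and 208 and 218 RPKM in knockdown, with the groups overlapping.

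MYL5, a light chain gene first described in fetal muscle and retina, was at 1.19 and 1.12 RPKM in wild-type cells and 1.91 and 1.81 RPKM in knockdown cells. The groups were apart and narrow, with means of 1.15 ± 0.0501 and 1.86 ± 0.0694 RPKM (SD, n = 2 each), and MYL5 was called higher (log2 difference 0.41 ± 0.11 SE, limma adjusted p = 0.0246). Like 25 of the 34 members, MYL5 overlaps a gene on the opposite strand, here SLC49A3 and ATP5ME, and whether counting used the strand is not given in the sources used here. Among the called members, MYL5, MYL6B and MYO1D were the least firm. MYL5 lost its call without wild-type replicate 1, wild-type replicate 2 or knockdown replicate 1, MYL6B without wild-type replicate 1 or either knockdown library, and MYO1D without wild-type replicate 2.

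Class I myosins are monomeric motors that link actin to membranes. MYO1E, a long-tailed member of endocytosis and cell junctions, was at 27.7 and 26.1 RPKM in wild-type cells and 39.3 and 41.6 RPKM in knockdown cells, without overlap. The mean rose from 26.9 ± 1.09 to 40.4 ± 1.67 RPKM (SD, n = 2 each; log2 difference 0.57 ± 0.10 SE, adjusted p = 0.00285).

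MYO1C, a short-tailed class I myosin of the plasma membrane and of glucose transporter traffic, was the most abundant of the class. It stood at 54.2 and 57.6 RPKM in wild-type cells and 57.8 and 58.5 RPKM in knockdown cells. The groups were apart by a narrow margin and the log2 difference was 0.06 (interval -0.15 to 0.27, adjusted p = 0.701). MYO1D, whose fly relative sets left-right asymmetry, was at 0.630 and 0.475 RPKM in wild-type cells and 1.02 and 1.23 RPKM in knockdown cells, and was called higher (log2 difference 0.45 ± 0.11 SE, adjusted p = 0.02). At this low level the size of the difference depended on the scale, from 0.19 with quantile normalization, where the call was lost, to 0.91 with a pseudocount of 0.1.

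MYO15B, a relative of the stereocilia motor MYO15A, showed the largest log2 difference among the 19 tested members. It was at 4.25 and 4.80 RPKM in wild-type cells and 9.03 and 8.28 RPKM in knockdown cells. Each knockdown value was well above each wild-type value, and the mean rose 1.91-fold from 4.53 ± 0.384 to 8.65 ± 0.529 RPKM (SD, n = 2 each). The log2 difference was 0.81 ± 0.11 SE (95% interval 0.55 to 1.06, limma adjusted p = 0.000983). In GENCODE v29 no other gene overlaps MYO15B on either strand. The calls of MYO15B, MYH14 and MYO1E held under every expression alternative run and with each library left out.

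The transport motors of class V, the class IX myosins and MYO18A were not called. MYO5A, which carries melanosomes and other vesicles, was at 3.48 and 3.07 RPKM in wild-type cells and 2.70 and 3.52 RPKM in knockdown cells, with overlap (log2 difference -0.06, interval -0.36 to 0.23, adjusted p = 0.767). MYO5C, the class V motor of glandular epithelia, was at 3.10 and 2.24 RPKM in wild-type cells and 2.94 and 3.83 RPKM in knockdown cells, also with overlap (log2 difference 0.26, interval -0.07 to 0.60, adjusted p = 0.245). The MYO5C interval is wide enough to hold rises as large as some of those called. The smallest difference that could be called at this spread was not tested. The MYO5A interval ends below the smallest rise called among the members (0.35, MYL6B) and reaches that size only as a fall.

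MYO9A and MYO9B are motors with a GTPase-activating domain in the tail. MYO9A was at 1.01 and 0.832 RPKM in wild-type cells and 0.873 and 1.48 RPKM in knockdown cells, where only replicate 2 stood above the others (log2 difference 0.17, adjusted p = 0.45). MYO9B was at 7.17 and 7.55 RPKM in wild-type cells and 8.11 and 9.16 RPKM in knockdown cells, without overlap and without passing (log2 difference 0.20, interval -0.05 to 0.45, adjusted p = 0.225). MYO18A, a class XVIII myosin that binds the Golgi protein GOLPH3 and co-assembles with non-muscle myosin II, was at 7.83 and 8.28 RPKM in wild-type cells and 9.07 and 10.4 RPKM in knockdown cells. The gene level of MYO18A was thus higher in both knockdown libraries but did not pass (log2 difference 0.24, interval -0.01 to 0.50, adjusted p = 0.155).

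**Figure D4:**
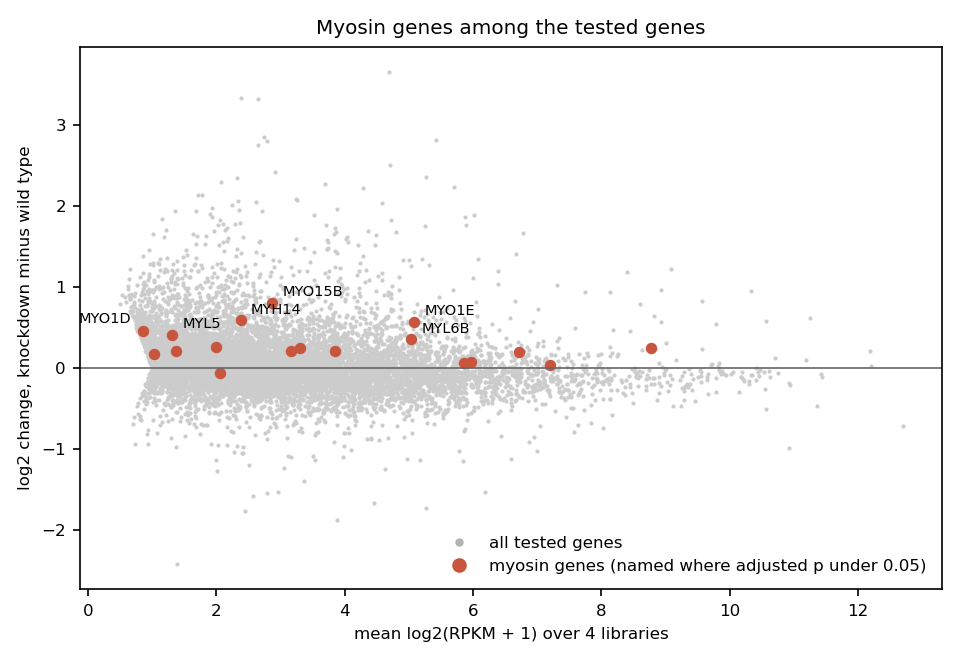
Difference in log2(RPKM + 1), knockdown minus wild type, against the mean level of the tested genes in grey, with 18 of the 19 tested myosin genes in red and those past the test named. The named myosins lie between 0.35 and 0.81, inside the cloud of tested genes.

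The remaining 15 members lay under the filter, between 0.00131 and 0.683 RPKM, and were not tested. Knockdown lay above wild type without overlap in 8 of them and below it in 2, and 5 overlapped. Among all 6859 genes under the filter these shares were 38.1% and 9.94%. The 5 with the highest single values were MYO7A, MYO5B, MYO1A, MYL10 and MYH3. MYO7A, a stereocilia and retinal motor, was at 0.328 and 0.420 RPKM in wild-type cells and 0.683 and 0.542 RPKM in knockdown cells. MYO1A, a class I motor of the intestinal brush border, was at 0.0971 and 0.0769 RPKM against 0.319 and 0.235 RPKM. Both genes were thus higher in both knockdown libraries at levels under 1 RPKM. MYO18B and MYO3B, also among the 8, stood at the lowest shared value, that of genes without reads, in both wild-type libraries. Their knockdown values were 0.00299 to 0.0135 RPKM.

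MYO5B, the recycling endosome motor of polarised epithelia, was at 0.623 and 0.636 RPKM in wild-type cells and 0.525 and 0.563 RPKM in knockdown cells. MYH3, the embryonic skeletal heavy chain, was at 0.250 and 0.216 RPKM in wild-type cells and 0.166 and 0.210 RPKM in knockdown cells. These were the 2 members under the filter with both knockdown libraries below both wild-type libraries. MYL10, a light chain related to the muscle regulatory chains, was at 0.0855 and 0.0372 RPKM against 0.301 and 0.118 RPKM, with the higher knockdown value in replicate 1. No muscle-type heavy chain reached the filter. MYH11 of smooth muscle, MYL3 of slow muscle and ventricle, and MYO15A were at the lowest value that the table shares between libraries, which stands for a gene without reads, in all libraries but knockdown replicate 1.

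Markers of other cell types were low, and their summed levels were higher in the knockdown. Of 8 smooth muscle markers 7 had a row, with a summed level of 9.63 to 10.4 RPKM in wild type and 18.4 to 18.96 RPKM in knockdown, and of 8 cardiac markers 3 had a row, at 2.52 to 3.05 RPKM against 4.65 to 5.58 RPKM. Of 6 fibroblast markers 5 had a row, at 0.570 to 0.843 RPKM against 2.02 to 2.12 RPKM, and of 5 leukocyte markers 2 had one, at 1.72 to 1.96 RPKM against 3.88 to 3.89 RPKM. SMTN, ACTA2 and MYOCD gave most of the smooth muscle sum, TNNI3 of the cardiac sum, and DES was at 0.0349 to 0.0576 RPKM in wild type and 0.232 to 0.337 RPKM in knockdown. THY1 gave most of the fibroblast sum and CD68 of the leukocyte sum, while the groups of CNN1, SYNPO2, MYBPC3 and FAP overlapped. Of 3 smooth muscle markers tested, MYOCD and ACTA2 were called higher and SMTN was not, beside 15.3% of all tested genes. In the cardiac, fibroblast, leukocyte and skeletal muscle lists the 1 tested marker was called higher (TNNI3, THY1, CD68 and RYR1). MYOCD, THY1 and RYR1 passed the filter only through the knockdown libraries. The part of these markers in the myosin values was not tested.

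The 3 myosins just outside the naming rule all passed the test. MYO10, the filopodial motor, was at 18.96 and 16.7 RPKM in wild-type cells and 22.4 and 29.3 RPKM in knockdown cells (log2 difference 0.50, limma adjusted p = 0.025). MYO6, the motor that walks to the minus end of actin, was at 2.20 and 1.91 RPKM against 2.89 and 3.41 RPKM (0.44, adjusted p = 0.0275). MYO19, a mitochondrial myosin, was at 17.7 and 16.9 RPKM against 12.7 and 13.1 RPKM (-0.39, adjusted p = 0.0208). MYO10 and MYO6 were thus higher and MYO19 lower in both knockdown libraries. The calls were lost without wild-type replicate 2 or knockdown replicate 2 for MYO10 and MYO6, and without wild-type replicate 1 or either knockdown library for MYO19.

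Alternative splicing adds or removes short loops and tail segments in several myosin motors, which changes their speed, their regulation or their cargo. The 6 cassette-exon events of the members fell on 4 exons, in MYO18A, MYO5A and MYH10, and 3 of these exons are coding microexons. Each is shown inside its spliced message to set out its length and frame, with the exon in capitals and 24 bases of each neighbouring exon in lower case, from GENCODE v29 on GRCh38, all from the minus strand. The MYO18A sequence is exon 11 of 42 of MYO18A-202 (chr17:29116444-29116455), the MYO5A sequence is exon 29 of 40 of MYO5A-201 (chr15:52348818-52348826), and the MYH10 exon 6 has a longer form in MYH10-202 (chr17:8576643-8576672) and a shorter one in MYH10-203 (chr17:8576643-8576669).
MYO18A exon 11: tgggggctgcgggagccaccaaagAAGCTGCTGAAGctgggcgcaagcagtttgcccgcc
MYO5A exon 29: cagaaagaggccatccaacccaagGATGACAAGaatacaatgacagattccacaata
MYH10 exon 6, longer form: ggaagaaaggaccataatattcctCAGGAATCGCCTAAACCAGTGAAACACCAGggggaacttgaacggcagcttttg
MYH10 exon 6, shorter form: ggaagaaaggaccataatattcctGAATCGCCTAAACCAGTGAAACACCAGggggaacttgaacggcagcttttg
The exons are 12, 9, 30 and 27 bases long. Each is a multiple of 3 and holds no stop codon in frame, so the reading frame is kept with or without it. Among 1190 cassette exons of the splicing table with an exon in GENCODE v29, 63 (5.29%) were of 30 bases or fewer, 49.3% were a multiple of 3, and the median length was 99 bases. The fourth exon, in the first part of MYH10 (chr17:8623424-8623497), has 74 bases.

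The values are PSI, the share in percent of an examined junction against the junctions it competes with. The deposited table lists only events that varied between libraries, with a smallest listed spread of 15.0 percentage points, so the events were not a random draw and the members' shares are read against the table alone. The limma test covered the 3744 events measured in all 4 libraries and called those with an adjusted p under 0.05 that also differed by 10 points or more. Only 4 events of the table passed (0.107%), with a smallest adjusted p of 0.0354. Of the 8 tested member events 0 passed this limma test, and 4 had an unadjusted p under 0.05 with a difference of 10 points or more, beside 18.4% of all tested events. The groups did not overlap in 6 of the 8, from 4 genes, beside 54.2% of all tested events. Every MYO18A junction is in both counts. These junctions lie at the same exon and share reads, so neither count is one of separate events. The number of reads behind a PSI is unknown, so no interval is given for a single value.

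The MYO18A microexon differed most. The junction from the exon before it into the microexon had a PSI of 34.0% and 37.8% in wild type and of 86.4% and 90.1% in knockdown. Both knockdown libraries thus lay far above both wild-type libraries. The difference was 52.3 points ± 8.44 SE (95% interval 32.0 to 72.7), and it missed the threshold after adjustment over all events (limma adjusted p = 0.194). Differences of at least this size were seen in 20 of the 3744 tested events (0.534%), with this one the 20th by size and the 11th by p.

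The junction from the microexon to the exon after it had a PSI of 45.0% and 43.9% in wild type and of 87.8% and 90.4% in knockdown. The difference was 44.6 points ± 8.34 SE (interval 24.5 to 64.7, limma adjusted p = 0.223). The junction that skips the microexon had a PSI of 42.9% and 41.8% in wild type and of 6.90% and 5.11% in knockdown, a difference of -36.3 points ± 8.32 SE (interval -56.4 to -16.3, limma adjusted p = 0.259). In every library the values fit an inclusion PSI set against the skipping junction alone and a skipping PSI set against both inclusion junctions. The sizes of skipping and inclusion PSI are thus not directly comparable. On this reading each inclusion junction was read less often than the skipping junction in wild type. In knockdown both inclusion junctions were high and the skipping junction low. These junctions belong to 1 exon and share reads, so they are not separate support. The skipping and the downstream inclusion junction summed to 87.9% and 85.7% in wild type and to 94.7% and 95.5% in knockdown. The upstream inclusion junction is the further term in the skipping denominator. Both inclusion junctions are in 4 transcripts of MYO18A in GENCODE v29, and the skipping junction (chr17:29115840-29118045) is in 0. With the replicate number as a block, both inclusion junctions passed (adjusted p = 0.0101 and 0.033), but the labels do not say that the numbers mark a shared origin.

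**Figure D5:**
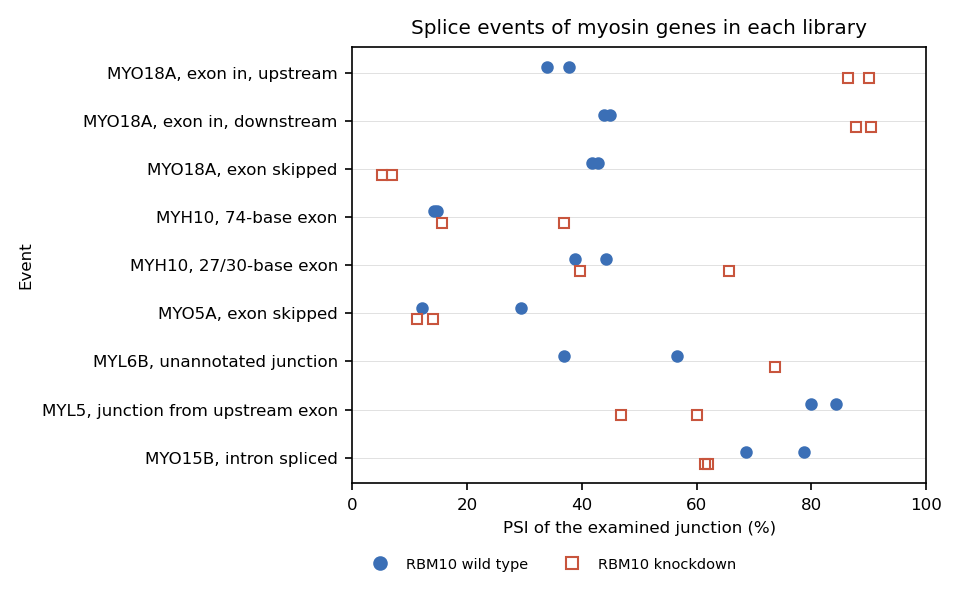
PSI in percent of the 9 splice events of the myosin genes in each library, with filled circles for wild-type and open squares for knockdown libraries. In the 3 MYO18A events the groups lie far apart, the MYL5 event is lower in both knockdown libraries, and in the MYH10 events only knockdown replicate 2 stands away from the rest.

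MYL5 was the other gene with an event among the 4 with an unadjusted p under 0.05. The junction from an upstream first exon (chr4:676209-678658), compared with one from a later start (chr4:678029-678658), had a PSI of 84.4% and 80.0% in wild type and of 46.9% and 60.0% in knockdown. Both knockdown libraries lay below both wild-type libraries, with a wider gap between them than between the wild-type libraries. The difference was -28.8 points ± 9.16 SE (interval -50.8 to -6.66, limma adjusted p = 0.259). The authors' annotation calls this event an alternative promoter, with the examined junction in 1 transcript of GENCODE v29 and the competing one in 2. MYL5 was also one of the light chains called higher at the gene level, a call among the least firm of the members.

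In MYO15B the event was the retention of an intron, read as the PSI of the spliced junction (chr17:75619476-75619681). Its PSI was 68.7% and 78.8% in wild type and 62.0% and 61.5% in knockdown. The spliced form was lower in both knockdown libraries, but the difference of -11.9 points did not pass (interval -33.1 to 9.21, adjusted p = 0.417).

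The loop insert of MYH10, encoded by the 27- or 30-base exon shown above, lies near the nucleotide pocket of myosin IIB and is known from neural tissue. Its inclusion was at 44.3% and 38.9% in wild type and at 39.7% and 65.6% in knockdown. The other MYH10 exon, of 74 bases, was included at 14.3% and 14.8% in wild type and at 15.7% and 36.9% in knockdown. In both events knockdown replicate 2 was the highest library and knockdown replicate 1 lay near the wild-type values, as it did for the MYH10 gene level. The differences were 11.1 points (interval -15.8 to 37.9, adjusted p = 0.563) and 11.8 points (interval -12.9 to 36.4, adjusted p = 0.498), and without knockdown replicate 2 the first turned to -1.92 points.

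The 9-base exon of MYO5A is known as exon B and encodes part of the tail segment that binds the light chain DYNLL. Its skipping was at 29.4% and 12.1% in wild type and at 14.1% and 11.2% in knockdown. Wild-type replicate 1 was high and the other 3 libraries lay close together, so the groups overlapped (difference -8.10 points, interval -31.4 to 15.2, adjusted p = 0.635). Without wild-type replicate 1 the difference was 0.562 points. In MYL6B a junction with 1 end at no annotated exon edge (chr12:56158415-56158684) had a PSI of 56.5% and 36.8% in wild type and 73.7% in knockdown replicate 2, with no value in knockdown replicate 1, and was not tested. Its other end is also the start of a MYL6 exon.

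Genes that act on myosins were described by 5 lists, whose counts stand beside 15.3% called higher and 7.03% called lower over all tested genes. Myosin II is switched on when its regulatory light chain is phosphorylated by ROCK, MYLK and related kinases downstream of small GTPases. Of 26 such kinases, GTPases and exchange factors 20 were tested, with 3 called higher, 0 lower and 17 neither, and a median log2 difference of 0.17. RND3, a small GTP-binding protein that opposes ROCK1, was at 6.58 and 5.22 RPKM in wild-type cells and 10.4 and 11.1 RPKM in knockdown cells (log2 difference 0.77, limma adjusted p = 0.00204). STK17A, a kinase of the DAPK family, was at 4.59 and 3.57 RPKM against 6.34 and 6.27 RPKM (0.53, adjusted p = 0.0151), a call that was lost without wild-type replicate 2. CDC42BPG, a kinase downstream of CDC42, was at 0.368 and 0.490 RPKM against 1.26 and 1.13 RPKM (0.62, adjusted p = 0.00351), entered the test only through the knockdown libraries and ranged from 0.33 with quantile normalization, where the call was lost, to 1.30 with a pseudocount of 0.1.

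The kinases best known for this step passed in neither direction. MYLK was at 1.88 and 1.68 RPKM in wild-type cells and 1.496 and 1.73 RPKM in knockdown cells (adjusted p = 0.613). ROCK1 was at 1.21 and 0.912 RPKM against 1.13 and 1.52 RPKM (adjusted p = 0.377), and ROCK2 at 5.44 and 3.96 RPKM against 3.78 and 5.73 RPKM (adjusted p = 0.989). RHOA, their upstream GTPase, was at 57.0 and 54.5 RPKM against 51.5 and 56.0 RPKM (adjusted p = 0.735). The groups of MYLK, ROCK1, ROCK2 and RHOA overlapped.

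Myosin phosphatase reverses the switch. Of its 10 subunits and inhibitors 8 were tested, with 1 called higher, 0 lower and 7 neither, and a median log2 difference of -0.12. The called gene, PPP1R14D, an inhibitor of the catalytic subunit, was at 0.164 and 0.163 RPKM in wild-type cells and 1.46 and 0.851 RPKM in knockdown cells, and passed the filter only there (log2 difference 0.88, adjusted p = 0.00199). Its difference ranged from 0.51 with quantile normalization, where the call was lost, to 2.21 with a pseudocount of 0.1, and without knockdown replicate 1 it did not pass the filter. The catalytic subunit PPP1CB was at 12.3 and 11.1 RPKM against 12.3 and 13.9 RPKM (adjusted p = 0.372). The targeting subunit PPP1R12A was at 6.57 and 4.79 RPKM against 4.19 and 6.08 RPKM (adjusted p = 0.64).

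Of 9 genes of myosin folding and turnover 6 had a row and 5 were tested, with 2 called higher, 0 lower and 3 neither (median 0.22). UNC45A, the chaperone that folds the myosin head in cells outside muscle, was at 18.1 and 20.1 RPKM in wild-type cells and 29.8 and 29.1 RPKM in knockdown cells, without overlap (log2 difference 0.60, limma adjusted p = 0.00285). FBXO32, a muscle ubiquitin ligase subunit, was at 0.456 and 0.390 RPKM against 1.499 and 1.02 RPKM (0.66, adjusted p = 0.00522), and passed the filter only through the knockdown. Its difference ranged from 0.36 with quantile normalization, where the call was lost, to 1.36 with a pseudocount of 0.1.

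Actin filament and stress fibre partners numbered 26, of which 25 were tested, with 11 called higher, 2 lower and 12 neither, beside 15.3% and 7.03% of all tested genes, and a median of 0.19 beside 0.02. FLNC, an actin crosslinker of muscle, was at 0.924 and 0.954 RPKM in wild-type cells and 6.10 and 6.31 RPKM in knockdown cells (log2 difference 1.89, limma adjusted p = 5.77e-06), and it entered the test only through the knockdown libraries. ACTA2, smooth muscle actin, was at 2.67 and 2.73 RPKM against 7.61 and 7.24 RPKM (1.19, adjusted p = 7.51e-05). TAGLN, a calponin relative of stress fibres, was at 17.3 and 19.9 RPKM against 42.0 and 41.2 RPKM (1.12, adjusted p = 8.21e-05), and ACTN4, an alpha-actinin, at 350 and 372 RPKM against 562 and 558 RPKM (0.63, adjusted p = 0.00082). LIMCH1, an activator of non-muscle myosin II, rose by 0.91, and the crosslinkers FLNA and ACTN1 rose by 0.45 and 0.47 on the log2 scale. Each of these genes was higher in both knockdown libraries than in both wild-type libraries.

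The tropomyosins in the same list, which coat actin filaments and set which myosins can use them, went the other way where they were called. TPM2 was at 226 and 280 RPKM in wild-type cells and 154 and 155 RPKM in knockdown cells (log2 difference -0.70, limma adjusted p = 0.00188). TPM1 was at 54.4 and 55.8 RPKM against 39.4 and 43.9 RPKM (-0.40, adjusted p = 0.0184), a call lost without knockdown replicate 1. TPM3 and TPM4 passed in neither direction (log2 differences -0.18 and 0.11, adjusted p = 0.247 and 0.499).

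Calmodulin, light chain and cargo partners of the unconventional myosins numbered 27, of which 19 were tested, with 2 called higher, 2 lower and 15 neither (median 0.08). USH1C, a scaffold that binds MYO7A and MYO7B, was at 1.42 and 1.21 RPKM in wild-type cells and 3.001 and 3.25 RPKM in knockdown cells (log2 difference 0.83, limma adjusted p = 0.000837). RAB27A, the GTPase that recruits MYO5A to melanosomes and secretory granules, was at 1.27 and 1.198 RPKM against 2.84 and 2.52 RPKM (0.72, adjusted p = 0.00174). Both were higher in both knockdown libraries. MLPH, which bridges RAB27A and MYO5A, was lower, at 22.8 and 26.1 RPKM against 17.8 and 17.5 RPKM (-0.45, adjusted p = 0.0149). DYNLL1, a light chain shared by dynein and MYO5A, was also lower, at 84.0 and 90.3 RPKM against 66.9 and 61.3 RPKM (-0.44, adjusted p = 0.011). The call of MLPH was lost without wild-type replicate 2 or knockdown replicate 2, and that of DYNLL1 without knockdown replicate 2. GOLPH3, the Golgi partner of MYO18A, passed in neither direction (log2 difference 0.19, adjusted p = 0.31).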

How the data were processed

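Expression and splicing were read in A549 cells, in 2 libraries each of RBM10 wild type and knockdown. Per the submitters' processing notes, STAR 2.6.1 and build hg38 were used. How reads were counted, on which annotation and strand, and how splicing was called is not given in the sources used here. A gene table was deposited by the authors, and its values have the form of RPKM. The unit is inferred from the values and is not written in the file. Only 1.73% of single-exon coding genes of GENCODE v29 had a row, against 74.9% of those with several exons, so the RPKM appear to rest on reads across junctions. Genes without reads hold a small shared value. The authors also deposited PSI per junction as a fraction, per the file headers, printed here in percent, and a dPSI fraction that follows the spread over libraries.

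Gene IDs were named through a table of gene IDs (16921), through GENCODE v29 (85) or not at all (35). log2(RPKM + 1) of genes with a group mean of 1 RPKM or more was compared with limma 3.58.1 in R 4.3.3 (trend, two-sided, no covariate, Benjamini-Hochberg adjusted). PSI fractions were compared with limma in events with 4 values. Both fits covered the whole table and were first tested on simulated data. The members, the gene lists and the rule for named genes (members above the filter, the 5 highest below it, all their events and up to a few genes of each list) were chosen with earlier results of these data known, so no list was tested. TPM3, TPM4, GOLPH3 and the markers named were picked after their values were seen. Exon sequences came from GENCODE v29 transcripts. Alternatives were the pseudocount, the filter, 3 normalizations, limma's settings, the replicate block, the wider naming rule and each library left out. Some named items that count in the totals are not reported here. A crossed block was added after seeing the data.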

Additional observations from a re-analysis of the deposited data

How the results depend on the processing

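Of the 7 called myosins, the calls with pseudocounts of 0.1 and 0.5 and with robust empirical Bayes were the same 7. MYL6B lost its call with a filter at 0.5 RPKM, TMM-like factors or no trend. MYL5 and MYO1D fell under a filter at 5 RPKM and were not tested there. Both lost their calls with quantile or cyclic loess normalization, where MYL6 gained one. With no filter MYL5, MYL6B and MYO1D lost their calls, MYO1A gained one and 0 myosins were lower. With MYO6, MYO10 and MYO19 added, 2 were lower. Over all genes, 796 were higher with a filter at 5 RPKM, and 322 were lower with no filter. Leaving out 1 library left 1269 to 1369 genes higher and 413 to 657 lower. Of all calls 68.5% were higher, against 52.5% with quantile normalization, 55.9% with the 5 RPKM filter and 79.2% with no filter. No splicing event of the table passed with limma's trend or without any 1 library (0 to 0), against 4 as reported.

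The replicate numbers gave no pairing of same-numbered libraries, whose deviations correlated at -0.444 in expression and -0.0396 in splicing. In expression, wild-type replicate 1 thus tended to deviate with knockdown replicate 2, and wild-type replicate 2 with knockdown replicate 1. What lies behind this shared spread was not tested. With a replicate block 438 genes were lower and 62 events passed, and MYL5 and MYL6B lost their calls. With the replicate numbers crossed, 2466 genes were higher and 1730 lower, and among the myosins 8 were higher and 1 lower.

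Directions turned only in genes and events that did not pass. MYL12B was at -0.00292 with TMM-like factors and -0.0411 to 0.11 with 1 library left out. MYO9A was at -0.0446 with quantile and -0.0119 with cyclic loess normalization. ROCK2 was at -0.0864, -0.0360 and -0.0255 with quantile, cyclic loess and TMM-like scaling, and at -0.24 to 0.25 with 1 library left out. RHOA was at 0.0263 with cyclic loess and -0.11 to 0.00640 with 1 library left out. In the same way MYO5A ranged from -0.208 to 0.0803 and PPP1R12A from -0.351 to 0.0975, the MYH10 microexon from -1.92 to 24.1 points and the MYO5A microexon from -16.8 to 0.562 points.

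Depth limits what the 15 myosins under 1 RPKM can show, and the reads behind each PSI are unknown.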
